A study of Homo sapiens with 34 samples.

Results

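The genes described here are 10 of the 19974 protein-coding genes in the RefSeq table of GRCh38: ATF4, DDIT3, TRIB3, SESN2, ASNS, PSAT1, PCK2, SLC7A11, CHAC1 and GDF15. They were selected on their known role as genes of the ATF4 response to amino acid shortage and other stress, and with the Pol II coverage of DDIT3, TRIB3, PCK2 and GDF15 in these lists already known. All differences between the conditions are therefore a description, with no test. For each gene, every deposited region and summit inside the gene or within 50 kb of it was read from 4 peak lists.

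The cells were DLD1, an established human colorectal adenocarcinoma line, with a Tet-inducible transgene for dominant negative TCF7L2. TCF7L2 belongs to the TCF factors, through which β-catenin acts on Wnt target genes. Uninduced cells were compared with cells exposed for 24 h to doxycycline at 1 µg/mL. ChIP-seq for RNA polymerase II (Pol II) and for H3K27ac, the acetylated histone found at active promoters and enhancers, was done on 2 samples per condition, with 1 input per condition. A single list serves both samples of a condition, so no spread between replicates could be measured. Both groups carry the transgene, and the labels name no group that received doxycycline without it, so effects of the drug and of the transgene cannot be told apart. The sources used here do not say whether the line is a single clone. The other 24 of 34 samples are RNA-seq and were not analysed here.

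ATF4 is a transcription factor whose mRNA is translated more when kinases that sense amino acid shortage, unfolded protein, heme loss or double-stranded RNA phosphorylate the initiation factor eIF2α, a program called the integrated stress response. ATF4 pairs with C/EBP-family proteins on composite DNA elements and turns on genes for amino acid synthesis, amino acid import and tRNA charging, along with feedback regulators. Doxycycline inhibits mitochondrial protein synthesis, and mitochondrial stress is a known trigger of this program.

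The Pol II lists held 57247 regions over 70.9 Mb without induction and 50665 regions over 56.7 Mb with it. The H3K27ac lists held 78005 and 79987 regions. A region is a stretch where the authors' caller found enrichment, a summit is a local maximum within it, the fold is enrichment over the caller's local background, and the −log10 q is the strength of the call. The 8 colon epithelium markers looked up had summits of both marks in both lists, at a median uninduced H3K27ac percentile of 94.6. LGALS4 and VIL1, however, had weak Pol II summits, at uninduced percentiles of 6.79 and 8.26, and low H3K27ac percentiles, 11.3 and 36.9. Of 8 markers of other cell types, 5 had summits, at a median uninduced H3K27ac percentile of 30.03, and COL3A1, DES and ALB had none. SYP was an exception for Pol II, with an uninduced fold of 31.8 at a percentile of 57.3.

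Pol II lay over the start of 9 genes and over the upper end of the SLC7A11 span in both conditions, and the 4 sequences shown here are those of the genes whose start lost most standing among all genes. They are the 250 bases before the start that RefSeq lists (GRCh38.p14), read 5′ to 3′ along the gene's own strand. ASNS, asparagine synthetase, has its sequence at chr7:97872409-97872658 on the minus strand. PSAT1, a serine synthesis enzyme, has it at chr9:78296875-78297124, SESN2, a leucine sensor, at chr1:28259268-28259517, and CHAC1, a glutathione-degrading enzyme, at chr15:40953221-40953470, all on the plus strand. Capitals mark TGATGNAA, the core of the ATF and C/EBP composite element, and CCAAT, the box bound by NF-Y, on either strand (TTNCATCA and ATTGG when read in reverse).
ASNS: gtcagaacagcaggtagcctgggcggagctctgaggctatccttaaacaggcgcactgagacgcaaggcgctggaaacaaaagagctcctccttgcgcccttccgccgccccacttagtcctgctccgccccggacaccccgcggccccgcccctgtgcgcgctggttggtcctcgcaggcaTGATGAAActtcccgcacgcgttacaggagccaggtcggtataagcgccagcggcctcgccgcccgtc
PSAT1: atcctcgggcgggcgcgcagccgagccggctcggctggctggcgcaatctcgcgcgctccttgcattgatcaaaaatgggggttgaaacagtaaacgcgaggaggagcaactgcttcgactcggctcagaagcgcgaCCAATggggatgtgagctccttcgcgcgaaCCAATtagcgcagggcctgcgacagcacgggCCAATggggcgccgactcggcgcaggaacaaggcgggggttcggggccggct
SESN2: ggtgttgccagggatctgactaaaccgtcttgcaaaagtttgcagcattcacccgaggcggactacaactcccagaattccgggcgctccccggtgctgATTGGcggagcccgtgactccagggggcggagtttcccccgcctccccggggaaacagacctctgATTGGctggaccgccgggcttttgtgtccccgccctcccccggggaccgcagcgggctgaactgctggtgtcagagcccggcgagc
CHAC1: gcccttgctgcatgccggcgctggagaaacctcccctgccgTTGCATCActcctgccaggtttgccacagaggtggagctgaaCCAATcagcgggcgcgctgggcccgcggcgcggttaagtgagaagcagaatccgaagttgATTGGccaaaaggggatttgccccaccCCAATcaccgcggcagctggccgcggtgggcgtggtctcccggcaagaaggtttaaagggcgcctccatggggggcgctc

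In ASNS the composite core read TGATGAAA, 68 to 61 bases before the start. In CHAC1 it lay on the reverse strand, as TTGCATCA, 209 to 202 bases before the start. Of the 9 members with a RefSeq promoter entry these were the 2 that held it, beside 2.21% of 15813 protein-coding promoters of the same length. SLC7A11 has no entry in that table. CCAAT stood at least once in 6 of the 9 (34.4% of all promoters) and at least 2 times in DDIT3, SESN2, PSAT1 and CHAC1 (11.5%). The TATA box TATAAA stood in ATF4 and GDF15 (9.25%). CTTTGAT and CTTTGAA, cores of the site bound by TCF factors, stood in none of the 9 (1.73% and 3.26%). The latter motifs were also sought on both strands. CCAAT and TATAAA were chosen after the sequences had been read, and no matches overlap in the members. A match here is a match of letters and shows no binding.

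All 9 promoter windows were covered by Pol II regions over their full 250 bases in both lists. H3K27ac regions also covered all of them without induction. In the induced list they covered 127 of the bases of DDIT3, 67 of those of SESN2 and the full window of the other 7. The share of all promoters covered in full was not counted, so these counts do not set the 9 genes apart.

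At the gene starts, the amino acid synthesis enzymes ASNS and PSAT1, the sensor SESN2 and the glutathione enzyme CHAC1 held a lower place with doxycycline, while ATF4, DDIT3, PCK2 and GDF15 stayed among the strongest Pol II genes of both lists. Place means the percentile of the gene's highest −log10 q, among summits in the gene or within 1 kb of it, over the 14627 protein-coding genes with a Pol II summit in either list. Places were used because the lists differ in length and strength: the −log10 q was lower in the induced list for 10 of the 10 genes, and for 94.2% of all genes. The place was lower for 9 of the 10 (48.7% of all genes) and lower by over 10 points for 4 (11.0%). None was higher by over 10 points (11.0%). The median difference in place was -5.86 points for the 10 genes and 0.15 points for all genes. Among genes at place 70 or more without induction, which hold 8 of the members, 19.7% were lower by over 10 points, beside 4 of the 8.

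**Figure D1:**
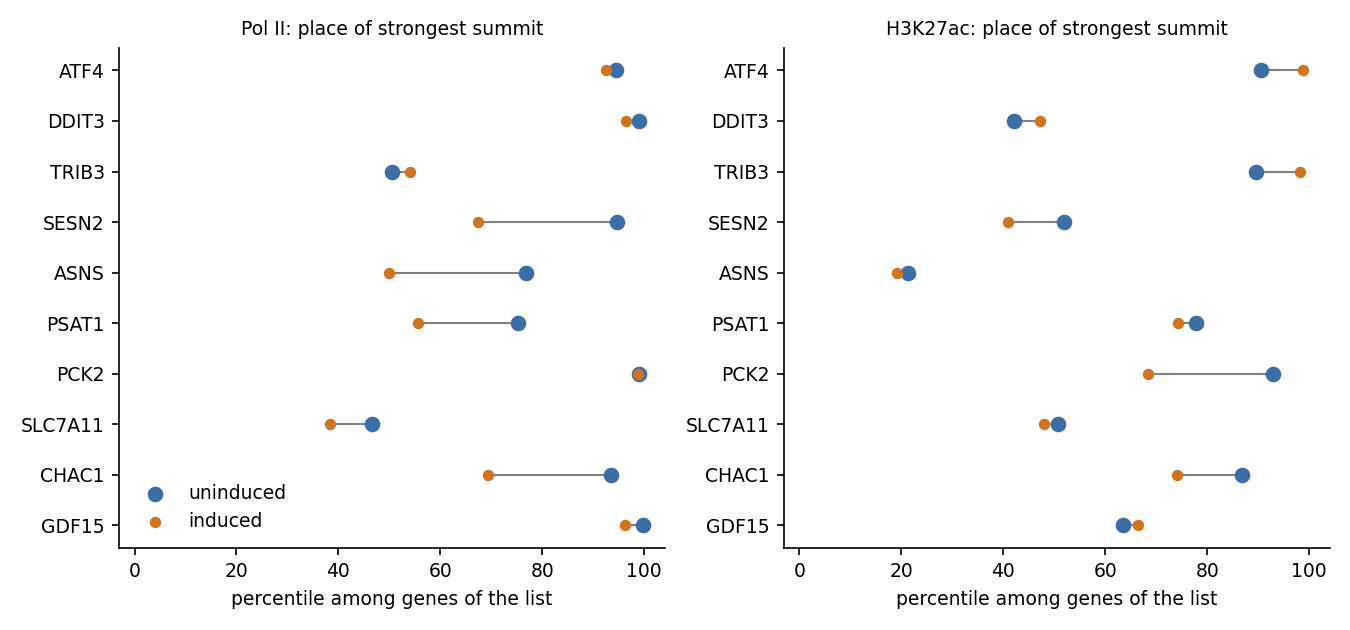
Percentile (horizontal axis, 0 to 100) of the strongest summit of each of the 10 genes (rows) in the uninduced (large blue points) and induced (small orange points) list, for Pol II on the left and H3K27ac on the right. SESN2, ASNS, CHAC1 and PSAT1 show the longest leftward lines for Pol II, and PCK2 the longest for H3K27ac.

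SESN2, whose protein binds leucine and restrains the growth kinase complex mTORC1, lies at chr1:28259518-28282491. Its strongest Pol II summit, 0.037 kb past the start, had folds of 34.6 without induction and 18.9 with it, at −log10 q values of 360.1 and 185.0. Its place went from 94.7 to 67.5, the largest drop of the 10 genes, and only 0.773% of genes had a lower difference in place. The region around the summit narrowed from 1.53 to 1.03 kb. No Pol II region lay in the gene body, meaning everything more than 1 kb past the start, in either list. In the 5 kb past the gene's end, where polymerase is known to gather before it leaves the template, Pol II regions covered 74.4% without induction and 20.9% with it. Those regions were weak in both lists, with folds of 2.48 to 4.60 without induction and of 3.04 and 4.51 with it.

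ASNS makes asparagine from aspartate and glutamine and is a classic ATF4 target. RefSeq gives its span as chr7:97851677-97928441 on the minus strand, but the listed start and the Pol II summit lie far inside that span, at 97872408 and 97872361. The summit had the same position in both lists, at folds of 28.5 and 23.6 and at −log10 q values of 276 and 143, uninduced and induced. Its place went from 76.8 to 49.9. Past the end of the gene, 25.3% of 5 kb was covered without induction and 5.24% with it. The strongest Pol II region elsewhere in the ASNS window, at chr7:97971325-97973437 and nearest to OCM2, was also weaker in the induced list, with folds of 42.5 and 27.5.

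PSAT1, phosphoserine aminotransferase, lies at chr9:78297125-78330093. Its Pol II summit stood 0.016 kb past the start, at a −log10 q of 269.9 without induction and 158 with it and at folds of 29.9 and 26.0. The place went from 75.3 to 55.7, although the region there kept its width, at 2.58 and 2.55 kb. The Pol II region just past the gene's end went from 2.90 kb with a fold of 6.83 to 1.25 kb with a fold of 3.47. Cover of the 5 kb there was 67.3% and 25.04%.

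CHAC1, which cleaves glutathione, is a short gene at chr15:40953471-40956512. Its summit, 0.003 kb past the start, had a −log10 q of 349.6 without induction and 189.6 with it, at folds of 39.9 and 33.3. The place went from 93.4 to 69.3. The region at the start spanned 4.00 kb (chr15:40950036-40954031) without induction and 1.72 kb (chr15:40952257-40953973) with it, the difference lying mostly upstream of the gene. Part of that upstream stretch was still listed with doxycycline, as a separate weak region of 1.02 kb with a fold of 3.03 (chr15:40950170-40951190). Past the end of CHAC1, cover of 5 kb was 92.1% and 49.3%. SLC7A11, the cystine importer that supplies glutathione synthesis, had milder values: a fold of 23.1 without induction and 20.01 with it, and places of 46.6 and 38.4, just short of the limit of 10 points. PSAT1, with a difference of -19.6, was the nearest gene beyond it.

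ATF4 itself (chr22:39520559-39522686) was covered by Pol II over its full length in both lists, inside a region of 12.6 kb without induction and 12.7 kb with it that begins inside MIEF1. Its strongest summit had a fold of 36.0 and 33.4 and a place of 94.4 and 92.5. DDIT3, which encodes the stress transcription factor CHOP, had folds of 53.4 and 40.8 and places of 99.0 and 96.5. TRIB3, a pseudokinase that feeds back on ATF4 and AKT, was the member with a higher place, 50.5 without induction and 54.1 with it, at folds of 24.6 and 24.4. It had a pair of nearly equal summits that exchanged rank: the one past the listed start had a −log10 q of 200.0 without induction and 139.5 with it, and the one before it 196.2 and 153.6. None of these 3 regulators was past the limit of 10 points.

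PCK2, the mitochondrial phosphoenolpyruvate carboxykinase, and GDF15, a secreted stress cytokine, stood at the very top of both lists. PCK2 had places of 99.1 and 98.9, and its fold was higher with doxycycline, 49.3 beside 43.6. GDF15 had the highest uninduced −log10 q of the 10 genes, 481, and one of 301 with induction, with places of 99.7 and 96.1. Its fold, however, was 53.5 and 26.5. Ranked by the highest fold in place of −log10 q, GDF15 therefore stood 37.5 points lower in the induced list and SESN2 47.1 points lower. By that measure the drop exceeded 10 points at 4 genes (22.5% of all genes), namely SESN2, GDF15, ASNS (13.6 points lower) and PSAT1 (10.3 points lower), while CHAC1 was 9.98 points lower. The fold was lower for 9 of the 10 genes (58.9% of all genes), at a median ratio of 0.851, beside 0.938 for all genes.

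Along the gene bodies, the stretch covered by Pol II was shorter with doxycycline at PCK2, GDF15, TRIB3 and DDIT3, and none of the 10 genes had a longer one. These 4 were known to differ when the genes were listed. Pol II coverage, the percent of the gene's length lying in Pol II regions, could be scored for all 10 genes and for 14091 genes in all. It was lower by over 10 points for 4 of the 10 (6.78% of scored genes) and higher by over 10 points for none (0.397%). The share depends on how much is covered to begin with: among genes covered over at least 30% without induction, which hold 6 members, 34.1% were lower by over 10 points, and among the rest 1.47%. By over 25 points it was lower at PCK2 alone, 1 of the 10 (0.866%). Coverage was lower by any amount for 9 of the 10 (77.9%) and higher for none (20.6%). The median difference was -4.88 points for the 10 genes and -0.51 points for all.

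**Figure D2:**
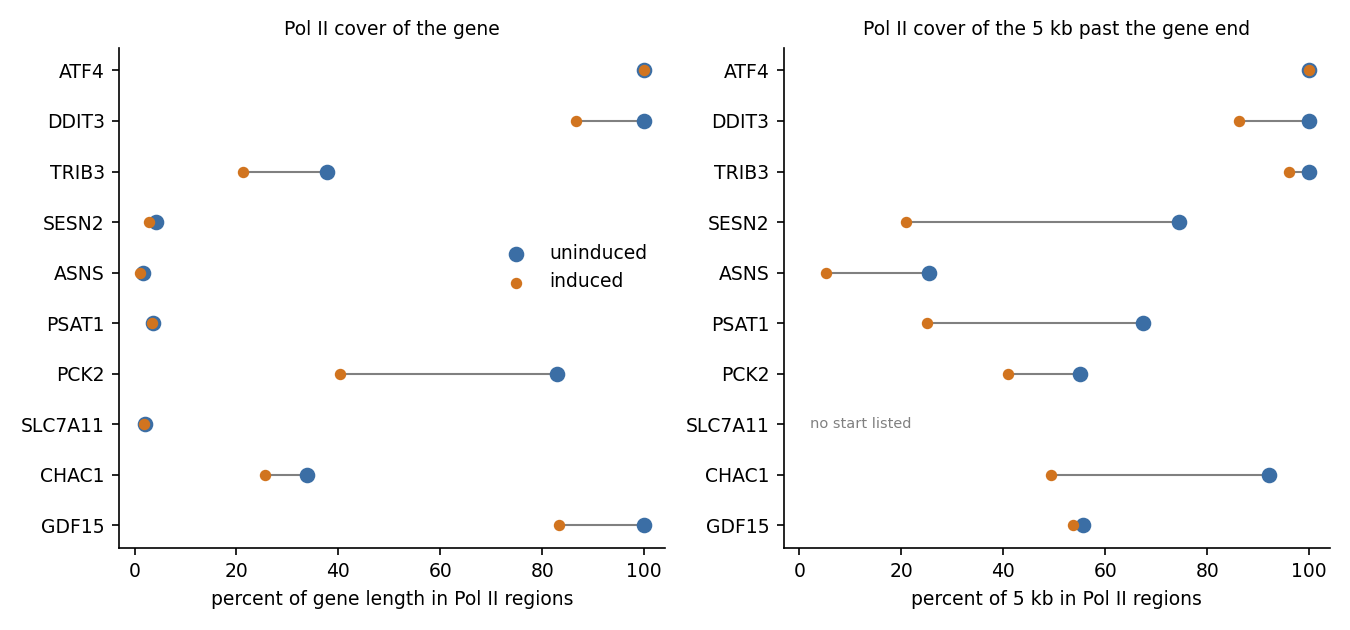
Percent of the gene's length (left) and of the 5 kb past its end (right) lying in Pol II regions (horizontal axes) for each of the 10 genes (rows), uninduced (large blue points) and induced (small orange points). PCK2 has the longest line on the left, from 82.9% to 40.2%, and SESN2 the longest on the right, from 74.4% to 20.9%; SLC7A11 has no point on the right, since its start is not in the table.

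PCK2 (chr14:24094171-24104125, within the span of NRL) was covered over 82.9% of its length without induction and 40.2% with it, and only 0.0923% of scored genes had a lower difference. Without induction a single region ran 5.76 kb from the promoter into the gene (chr14:24093342-24099101). With doxycycline it ended at 24095800, after 2.18 kb, and 3 short pieces with folds of 2.29 to 4.51 lay where the rest had been. The promoter summit hardly moved in place while this body signal shortened. Cover of the gene beyond 1 kb past the start was 80.7% and 32.5%.

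GDF15 (chr19:18386158-18389176) lay in a single Pol II region of 6.71 kb without induction and in 3 regions with it, the first of them 2.70 kb long. Its coverage was 100% and 83.2%. With 1 kb added to both sides of the gene, the difference was -8.97 points and no longer past the limit. The region with the next strongest summit in the induced list, at chr19:18389167-18391864, reaches into LRRC25.

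DDIT3 (chr12:57516588-57520517, minus strand) was covered over 100% without induction and 86.7% with it. It sits between the 3′ end of MARS1 and the start of MBD6 and contains the span of LOC128125814, so Pol II there cannot be assigned to DDIT3 alone. The uninduced region, chr12:57510922-57521677, was 10.8 kb long with 19 summits. In the induced list 4 regions touched the gene, the strongest at chr12:57518961-57521212. TRIB3 (chr20:380760-397559) had coverage of 37.8% and 21.3%, but most of what differed was weak: with regions of −log10 q 5 or more alone, the difference was -3.69 points and under the limit. CHAC1 had 33.8% and 25.5%, a difference of -8.28 points that fell short of the limit, beyond which DDIT3, with -13.3, was the nearest.

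The remaining genes held Pol II mainly at their starts, so coverage was low in both lists. It was 4.27% and 2.80% for SESN2, 3.57% and 3.39% for PSAT1, 2.13% and 1.93% for SLC7A11 and 1.66% and 1.12% for ASNS. Counted from its listed start, ASNS had 3.74% and 2.65%.

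**Figure D3:**
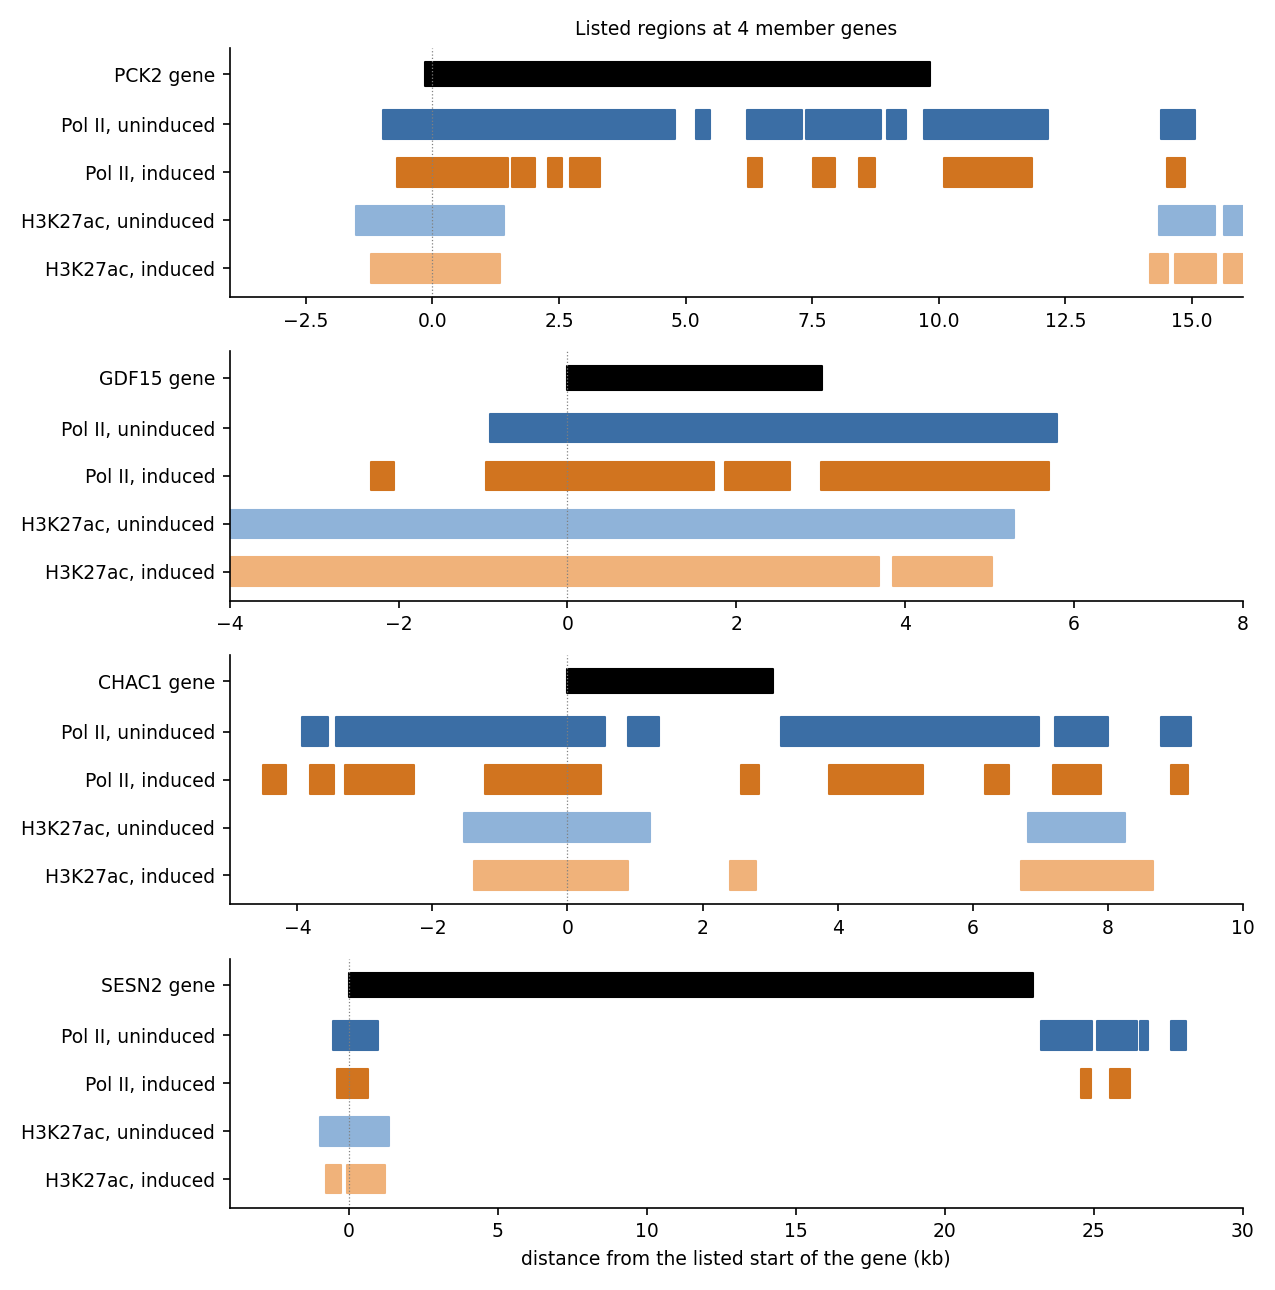
Regions of the 4 lists (coloured bars, rows) around PCK2, GDF15, CHAC1 and SESN2, with the gene as a black bar, against distance from the listed start in kb along the chromosome (horizontal axis). The Pol II bar over PCK2 is 5.76 kb long without induction and 2.18 kb with it, and the Pol II bars past the end of SESN2 and CHAC1 are shorter in the induced row.

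Past the gene ends, the largest differences lay at SESN2, CHAC1 and PSAT1. This measure, the cover of the 5 kb beyond the end, was added after values had been seen, and it could be taken for 9 of the 10 genes. Cover was lower with doxycycline for 8 of the 9 (76.0% of 7741 genes) and lower by over 10 points for 6 (32.6%): SESN2, ASNS, PSAT1, CHAC1, PCK2 (55.1% and 40.9%) and DDIT3 (100% and 86.2%). The stretch past DDIT3 lies within MARS1 and that past PCK2 within NRL, so Pol II there cannot be assigned to these members alone. TRIB3 had 100% and 96.0%, GDF15 55.7% and 53.8%, and ATF4 100% in both lists. The median difference was -14.2 points for these genes and -5.82 for all. Without induction the cover past the end of the 9 genes ran from 25.3% (ASNS) to 100%. The share among genes of like uninduced cover was not counted for this measure. In the body itself, Pol II regions lay at 7 of the 9 genes in at least 1 list. Body cover was lower at 6 of the 7 (80.0% of all genes with such a region), 4 of them by over 10 points (9.46%). Those 4 were PCK2, GDF15, TRIB3 and DDIT3, whose coverage was already known when the genes were listed. Their count here is therefore not separate evidence. Within 1 kb of the start, 5 of 9 were lower (66.1%), 4 of them by over 10 points (21.4%).

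H3K27ac at the same genes went in both directions. The place of the strongest summit was lower in the induced list for 6 of the 10 genes (48.7% of 15165 genes), by over 10 points for 3 (12.7%), and higher by over 10 points for none (13.0%). The 3 were PCK2, from 92.9 to 68.4, CHAC1, from 86.8 to 74.1, and SESN2, from 51.8 to 41.0. The highest fold was lower for 2 of the 10, PCK2 and CHAC1 (33.4% of genes). Ranked by that fold, PCK2 and CHAC1 stood more than 10 points lower (2 genes, 24.5% of all) and ATF4, TRIB3 and SLC7A11 more than 10 points higher (3 genes, 23.4%). The −log10 q was lower for 7 of the 10 (64.1%).

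The H3K27ac fold was higher with doxycycline at 8 of the 10 genes, and the median ratio was 1.15 for the 10 and 1.11 for all genes. ATF4 and TRIB3 had the highest ratios of the 10, 1.84 and 1.45, where the 90th percentile of all genes was 1.54. At ATF4 the highest H3K27ac fold was 24.7 without induction and 45.4 with it, and the place by −log10 q 90.6 and 98.8. At TRIB3 the folds were 25.8 and 37.4 and the places 89.6 and 98.3. DDIT3 had highest folds of 21.4 and 21.7, the uninduced one at a summit outside the gene, in MBD6. The strongest summit inside DDIT3 had folds of 18.4 and 21.7. PCK2, whose fold was 34.1 and 24.2, was the gene with the clearest drop, at a promoter where the Pol II place was nearly the same in both lists.

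At the remaining genes the H3K27ac fold ratio lay between 0.946 (CHAC1) and 1.26 (SLC7A11). ASNS had the weakest promoter mark of the 10, with folds of 12.2 and 13.9 and places of 21.4 and 19.1. PSAT1 had folds of 28.0 and 32.4, GDF15 27.2 and 32.1, CHAC1 32.6 and 30.8 and SESN2 17.8 and 19.9. SLC7A11 had a highest fold of 19.1 without induction, at a site inside the gene (chr4:138198794-138201165), and of 24.1 with it, at the upper end of the gene (chr4:138240221-138242726). That internal site also carried a Pol II region in both lists, with folds of 8.59 and 8.98. In SESN2 the promoter region of 2.30 kb was split in the induced list, leaving a gap just upstream of the start.

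H3K27ac coverage of the gene was lower by over 10 points at DDIT3 alone among the 10 (1.13% of 14626 genes), with 87.9% and 63.4%, and higher by that much at none (0.773%). With regions of −log10 q 5 or more alone, CHAC1 was lower as well, with a difference of -10.5 points beside 2.14 over all regions. By any amount it was lower at 5 of the 10 (55.8%) and higher at 3 (43.1%). ATF4 and GDF15 were fully covered in both lists. Over GDF15 a single H3K27ac region of 31.1 kb with 38 summits (chr19:18360369-18391443) was split in the induced list, where the piece over the gene was 9.33 kb long.

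The windows around the 10 genes lost about the same share of Pol II cover as the whole list. Within 50 kb of the genes, Pol II regions covered 232.8 kb without induction and 187.0 kb with it, or 80.4% of the uninduced length, beside 80.04% over the whole list. Of 128 uninduced Pol II regions in the windows 33 had no induced partner sharing at least 1 bp, and of 128 induced ones 14 had no uninduced partner. A partner was thus present for 74.2% of the uninduced and 89.1% of the induced regions, beside 69.6% and 89.2% over the whole lists. For H3K27ac 9 of 102 and 24 of 123 regions had none, so 91.2% and 80.5% had a partner, beside 85.5% and 87.7% over the whole lists. H3K27ac covered 234.4 kb of the windows without induction and 238.0 kb with it, or 101.5% of the uninduced length, beside 97.1% over the whole list. Of the regions without a partner 3 reached a fold of 5, all uninduced: a Pol II region in MARS1 at chr12:57496437-57497733 (fold 5.31), a Pol II region that begins in NRSN2 at chr20:353634-355075 (fold 5.05), and an H3K27ac region 6.72 kb from MED18 at chr1:28321717-28322322 (fold 5.38).

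Neighbouring genes were split evenly. Of 31 protein-coding genes in the windows more than 2 kb from a member, 26 had a Pol II summit. Of these, 13 had a lower place in the induced list (48.7% of all genes) and 13 a higher one, at a median of 0.17 points. The place was lower by over 10 points for 3 (11.0% of all genes) and higher by over 10 points for 5 (11.0%). Some of these genes share a strongest summit and were counted separately, as PSME2 with RNF31 and LOC101929937 with NRSN2. Beside SESN2, ATP5IF1, which encodes an inhibitor of the mitochondrial ATP synthase, had folds of 25.3 and 37.9 and places of 71.6 and 85.7. Beside ATF4, RPS19BP1 had folds of 23.2 and 43.1 and places of 68.7 and 93.1. Beside CHAC1, the Notch ligand gene DLL4 had places of 99.4 and 98.3. Beside GDF15, PGPEP1 had folds of 29.8 and 16.5 and places of 47.9 and 33.1, and beside PCK2, EMC9 had places of 76.7 and 74.2. These 5 genes hold the strongest Pol II region outside the member in both lists of their window. Neighbours were not compared with the members by a test.

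Other genes of the pathway were read from 6 lists. The tRNA charging genes (aminoacyl-tRNA synthetases with the tRNA exporter XPOT) came closest to the 4 genes above. Of 10, 8 had a lower Pol II place (48.7% of all genes) and 6 were lower by over 10 points (11.0%), at a median of -12.3 points. WARS1 went from 58.5 to 30.4, MARS1 from 52.6 to 33.1, SARS1 from 77.6 to 59.8, EPRS1 from 50.1 to 34.2, CARS1 from 76.8 to 64.3 and XPOT from 79.1 to 67.0. The strongest summit of MARS1 lies where its span overlaps ARHGAP9, so it cannot be assigned to MARS1 alone. Their H3K27ac place was lower for 8 of the 10 (48.7% of all genes), at a median of -10.7 points. By coverage the largest differences of the list were at MARS1 (27.5% and 16.7%), CARS1 (7.98% and 2.13%) and AARS1 (9.62% and 6.83%). In both lists a Pol II region over DDIT3 runs into MARS1, so part of the MARS1 difference is shared with that member. The genes given here by place were named after their values had been seen.

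The median differences in place of the other 5 lists lay between -3.82 and 2.73 points. The genes of serine, one-carbon and proline synthesis had 7 of 9 scored genes at a lower place (48.7% of all genes), none by over 10 points (11.0%). PYCR1, a proline synthesis enzyme, had the largest coverage difference among them, with 91.3% and 76.3%, followed by MTHFD2, the mitochondrial folate enzyme, with 10.4% and 5.21%. ALDH1L2 met no Pol II region. The amino acid transporters had 1 of 7 lower in place by over 10 points (11.0% of all genes) and a median of 0.44. In coverage 7 of 7 were lower (77.9% of scored genes). Their median coverage difference was -6.48 points, beside -0.51 for all scored genes. SLC38A2 had 28.9% and 18.4%, and SLC1A5 32.5% and 25.1%.

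Among the eIF2 kinases and their controls, 1 of 9 had a place more than 10 points lower (11.0% of all genes) and 2 more than 10 points higher (11.0%). The 2 higher ones, named after their values were seen, were DELE1, the relay of mitochondrial stress to the kinase HRI, from 57.0 to 82.4, and EIF2AK3, the kinase PERK, from 52.5 to 71.1. The lower one was EIF2AK4, the kinase GCN2 that senses uncharged tRNA, from 89.3 to 69.2. PPP1R15B, an adaptor of the eIF2α phosphatase, had the largest coverage difference of that list, 63.0% and 39.5%.

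The partner transcription factors had 0 of 7 genes past 10 points in either direction, at a median of -0.38, and NUPR1 had the largest coverage difference, 25.5% and 5.43%. In the ATF6 and XBP1 arms of the unfolded protein response, which run beside ATF4, places past 10 points numbered 2 of 8 downward and 2 upward (11.0% of all genes each way). The median there was 0.89, and XBP1 had coverage of 58.8% and 34.1%. In each of the 6 lists 1 gene was lower in coverage by over 10 points (6.78% of scored genes) and none was higher by that much (0.397%).

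**Figure D4:**
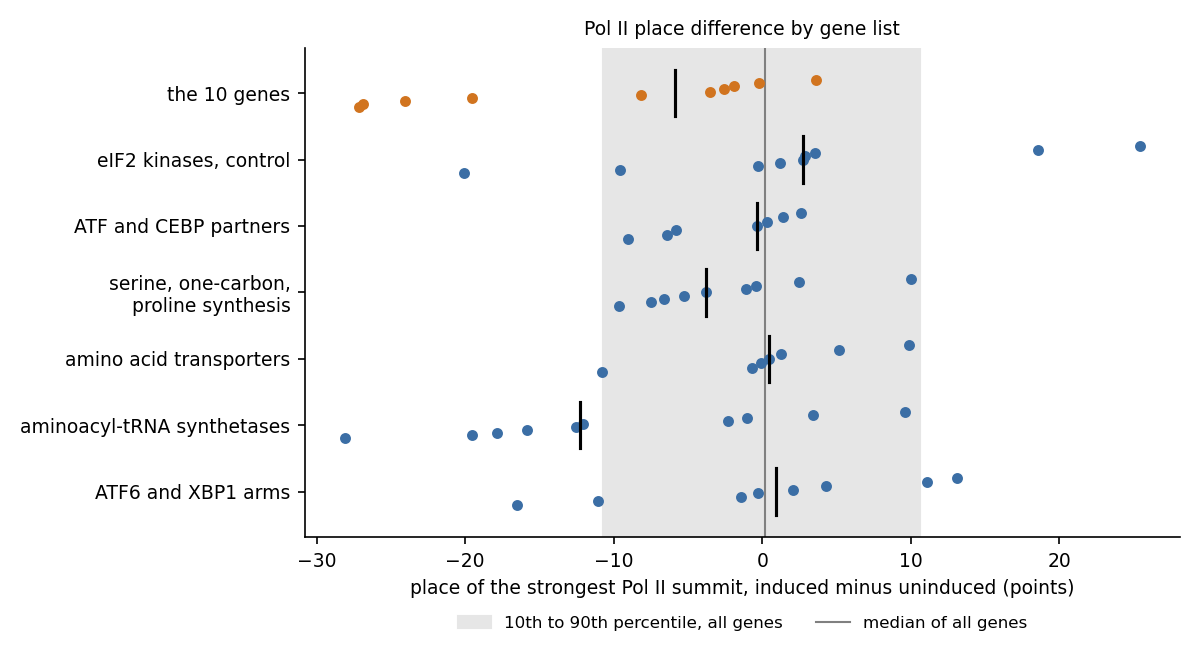
Difference in place of the strongest Pol II summit, induced minus uninduced, in points (horizontal axis), for the genes (points) of each list (rows), with the list's median as a vertical bar. The grey band runs from -10.7 to 10.6 points, the 10th to the 90th percentile of all genes with a Pol II summit, and the grey line is their median; the 10 genes and the tRNA charging genes have medians of -5.86 and -12.3 points, left of that line.

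The genes most like PCK2, GDF15 and TRIB3 were sought over 4 coverage values, those of both marks in both conditions, as the smallest Euclidean distance. ZNF587 was nearest to PCK2, with Pol II coverage of 76.0% and 42.3%, at a distance of 7.79 points. H2BC21, a histone gene, was nearest to GDF15 at 1.1 points, and SLC7A6, an amino acid transporter gene, to TRIB3 at 5.66 points.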

How the data were processed

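Per the submitters' processing notes, which give no role or order, the tools include MACS2 2.1.1.20160309, BWA 0.7.17-r1188, deepTools 3.5.0 and SAMtools 1.10, and the builds hg38 and hg19. Positions are those of GRCh38, because regions on chromosome 17 extend to 83228308, beyond its hg19 length. Per the labels, each sample had 40 to 55M single reads of 75 bp. The sources used here do not give the depth behind each list, the caller settings, or whether reads were pooled. For each summit the deposited lists give a score, a fold (a ratio to local background), a −log10 q that begins at 1.30, and an other value, the summit's offset. The deposited summit files repeat them.

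Rows repeating a region were collapsed, and summits outside the autosomes and X (at most 0.603% of a list) were left out. Coverage was scored for protein-coding genes of 2 kb or longer with a Pol II region in either list. No column of per-sample values was unmatched (0). The computation used Python 3.11.15 with pandas 2.3.3 and was tested on simulated data. Peaks have no replicate values, so no test was run, and values of different lists were compared by place or coverage.

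The members and lists were chosen with earlier results of these data known. The genes named were the 10 members, up to 3 genes per further list by coverage difference, the strongest region of each member and of its window, partnerless regions of fold 5 or more, and the nearest gene by coverage for the 3 members with the largest difference; others are marked. Alternatives were regions of −log10 q 5 or more, equal list lengths, limits of 5 and 25 points, centring, other gene spans and reaches, looser pairing, a 10 kb window, and ranks by fold; the span and reach from the listed start, and the count past 10 points of place, were chosen after seeing the data. Promoter sequences came from the RefSeq table of GRCh38.p14 and no genome sequence was used.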

Additional observations from a re-analysis of the deposited data

How the results depend on the processing

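No list has a replicate check, so no result could be recomputed without a sample. No paired analysis was possible because each list serves both samples of a condition. Of 116 recomputed values 93 kept within the set tolerance (5 points for a coverage difference, 1.5 times for a count) and 23 moved. No called direction turned, but the H3K27ac coverage difference of CHAC1, 2.14 points, was -10.5 with regions of −log10 q 5 or more. With a limit of 25 points, 1 member was lower in Pol II coverage in place of 4. Regions without a partner numbered, for −log10 q of 5 or more, 1 kb pairing and a 10 kb window in that order, 19, 12 and 18 in the uninduced Pol II list (33 as reported), 4, 4 and 7 in the induced Pol II list (14), 5, 3 and 5 in the uninduced H3K27ac list (9) and 10, 12 and 6 in the induced H3K27ac list (24). Ranked by fold, 3 members had a lower H3K27ac place in place of 6. The Pol II difference of DDIT3 was -26.9 points, and that of CHAC1 -1.91, with regions of −log10 q 5 or more. For CHAC1 it was -19.1 with 1 kb added to both sides. The cause of each shift was not tested. The depth of each list limits which weak regions appear. After subtraction of the median of all genes, 7 members were lower and 3 higher in Pol II coverage.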
